A study of Mus musculus with 9 samples.

Results

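Cytokine mRNA stability regulators are the RNA-binding proteins that decide how long short-lived transcripts such as Tnf and Il6 persist in a macrophage. The 8 genes Arid5a, Zc3h12a, Zc3h12c, Zfp36, Zfp36l1, Zfp36l2, Rc3h1 and Elavl1 were taken by symbol from a list drawn up with earlier results of these data known, and all 8 were found among the 23282 gene rows measured. The cells were RAW 264.7, a virus-transformed macrophage line from BALB/c mice that forms osteoclasts when given the cytokine RANKL, at passage 30 and with Blood lymph as their labelled tissue. Cells were treated for 4 days, and 3 libraries were made for each of 3 groups. The negative control received RANKL alone at 50 ng/mL. The surface protein group received proteins extracted from the surface of Propionibacterium freudenreichii MJ2 at 10 µg/mL together with RANKL. The heat-killed MJ2 group received dead bacteria of the same strain at 10000000 cells/mL, and whether those cells also received RANKL is not stated library by library. No group labelled as untreated was analysed here, and all differences are within 1 cell line at 1 time. Whether the 3 libraries of a group came from separate cultures is not stated, so p-values measure the spread between these libraries, which may be technical.

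Many cytokine, chemokine and early response transcripts carry AU-rich elements or stem-loops in the 3′ untranslated region (UTR), and proteins bound there set the decay rate. The Zfp36 proteins (tristetraprolin and its relatives Zfp36l1 and Zfp36l2) bind AU-rich elements and recruit the deadenylation machinery, while Elavl1 (HuR) binds similar elements and stabilises many of the transcripts it holds. Zc3h12a (Regnase-1) and its relative Zc3h12c (Regnase-3) are endoribonucleases, Rc3h1 (Roquin-1) binds stem-loops and brings in deadenylases, and Arid5a protects Il6 mRNA and other transcripts from Regnase-1. Several of these genes are themselves induced by inflammatory signals and act in feedback.

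The values were log2(adjusted reads + 1) from the 3′ ends of transcripts, and an adjusted read is a read after the scaling that had been applied before deposit. Reads come from the ends of transcripts, so a level does not grow with transcript length, and levels of different genes are set side by side on that basis only. The libraries summed to between 5930926 and 6503682 adjusted reads. Pearson's r over gene rows was 0.946 to 0.964 between libraries of 1 group and 0.823 to 0.921 between libraries of different groups, and no pair held identical values. All 6 macrophage markers were above 3 adjusted reads in every group, while the T-cell markers were near 0 throughout, with a sum of at most 3.8 adjusted reads in any library. The sums were at most 10.7 for B-cell, 7.3 for epithelial and 41.8 for fibroblast markers. The summed macrophage markers were 14724 to 16576 adjusted reads in the negative control, 21918 to 22685 with heat-killed MJ2 and 17180 to 18854 with surface proteins, a sum that held opposite moves. With surface proteins Csf1r fell (2.78-fold lower, limma adjusted p = 0.0039), while Adgre1, Itgam, Lyz2 and Cd14 rose by log2 fold changes of 3.81, 3.01, 2.48 and 2.37 (limma adjusted p of at most 0.012 each). The sum of 8 osteoclast markers was 17073 to 28379 adjusted reads in the negative control, 12052 to 14038 with heat-killed MJ2 and 4958 to 7349 with surface proteins. The 8 did not all move alike with heat-killed MJ2. Acp5 fell (log2 fold change −1.11, SE 0.19, limma adjusted p = 0.029), while Mmp9 lay at 0.58 without passing (SE 0.32, limma adjusted p = 0.34). The marker sums moved with the groups, and the part of these markers in the results was not tested. In bulk RNA, fewer cells of a type and less RNA per cell cannot be told apart.

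The letters that Zfp36 proteins and Elavl1 bind are shown here because the regulators' own transcripts hold them as well as the cytokine transcripts. The pentamer ATTTA was counted in the longest annotated 3′ UTR of each gene (GRCm38, GENCODE M21), together with the longer nonamer TTATTTATT, which overlaps it. The pentamer was present in 65.1% of the 20914 genes with a 3′ UTR and the nonamer in 7.61%. All 8 regulators held the pentamer and 5 of 8 held the nonamer, with a median 3′ UTR of 2830 bases against 956 bases over all genes. Among 26 transcripts known as targets of these proteins, 24 held the pentamer and 8 held the nonamer, with a median 3′ UTR of 682 bases. A match is a description of the letters and not of binding. The 30-base stretch with the most pentamers is printed for 4 regulators and 4 targets, 5′ to 3′ on the transcript strand with every ATTTA in capitals.
Zfp36, chr7:28376958-28376987, minus strand: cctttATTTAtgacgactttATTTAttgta
Zfp36l1, chr12:80108431-80108460, minus strand: cttATTTAacttatcaaaacgtATTTAttg
Zfp36l2, chr17:84184918-84184947, minus strand: gaaaaactATTTAacttATTTAttatcttg
Elavl1, chr8:4285778-4285807, minus strand: attATTTATTTATTTATTTAtttttATTTA
Tnf, chr17:35199677-35199706, minus strand: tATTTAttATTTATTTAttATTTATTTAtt
Cxcl2, chr5:90905328-90905357, plus strand: ATTTATTTAtctatgtATTTATTTATTTAt
Ptgs2, chr1:150105816-150105845, plus strand: agaATTTAATTTAattATTTAatATTTAta
Nfkbiz, chr16:55811851-55811880, minus strand: cctcttagATTTAtgtaATTTAcctaagtt

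Elavl1 held 17 pentamers and 8 nonamers in a 3′ UTR of 4218 bases, and Zfp36l1 held 9 pentamers and 1 nonamer in 1835 bases. Zfp36 itself held 3 pentamers and 1 nonamer in a 3′ UTR of 774 bases, next to 8 pentamers and 5 nonamers in the 764 bases of Tnf. Zc3h12c held 14 pentamers without a nonamer. Zc3h12a held 3 pentamers and Arid5a held 2, again without a nonamer.

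In surface protein-treated cells compared with RANKL alone, 4 of the 8 regulators rose and 1 fell. The 4 that rose were Arid5a, Zc3h12c, Zc3h12a and Zfp36, and the 1 that fell was Zfp36l1. These were 62.5% of the 8 genes, next to 29.1% of all 10874 genes tested that passed in either direction, 15.9% upward and 13.2% downward (limma with Benjamini-Hochberg adjustment over all genes, adjusted p under 0.05). The median log2 fold change of the 8 was 0.77, against −0.01 over all genes. Arid5a, which counts in the 62.5%, reached the filter on low values only through the surface protein libraries. The filter favoured its rise, and the median of the other 7 was 0.20. The 8 genes were listed with earlier results of these data known, so the 62.5% is a description and not a test. With heat-killed MJ2, 0 of 7 tested regulators passed, against 5.88% of all 10814 genes (4.04% upward and 1.84% downward), and 2 of the 7 (28.6%), Zc3h12a and Zfp36, had an unadjusted p under 0.05, next to 22.6% of all genes. Between surface proteins and heat-killed MJ2, 3 of 8 regulators were higher and 1 lower with surface proteins, or 50.0% against 17.9% of 10916 genes (9.21% higher and 8.65% lower). In the comparisons of surface proteins, which of these all-gene directions was the larger turned with the scaling. Both treatments were set against the same 3 control libraries.

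**Figure D1:**
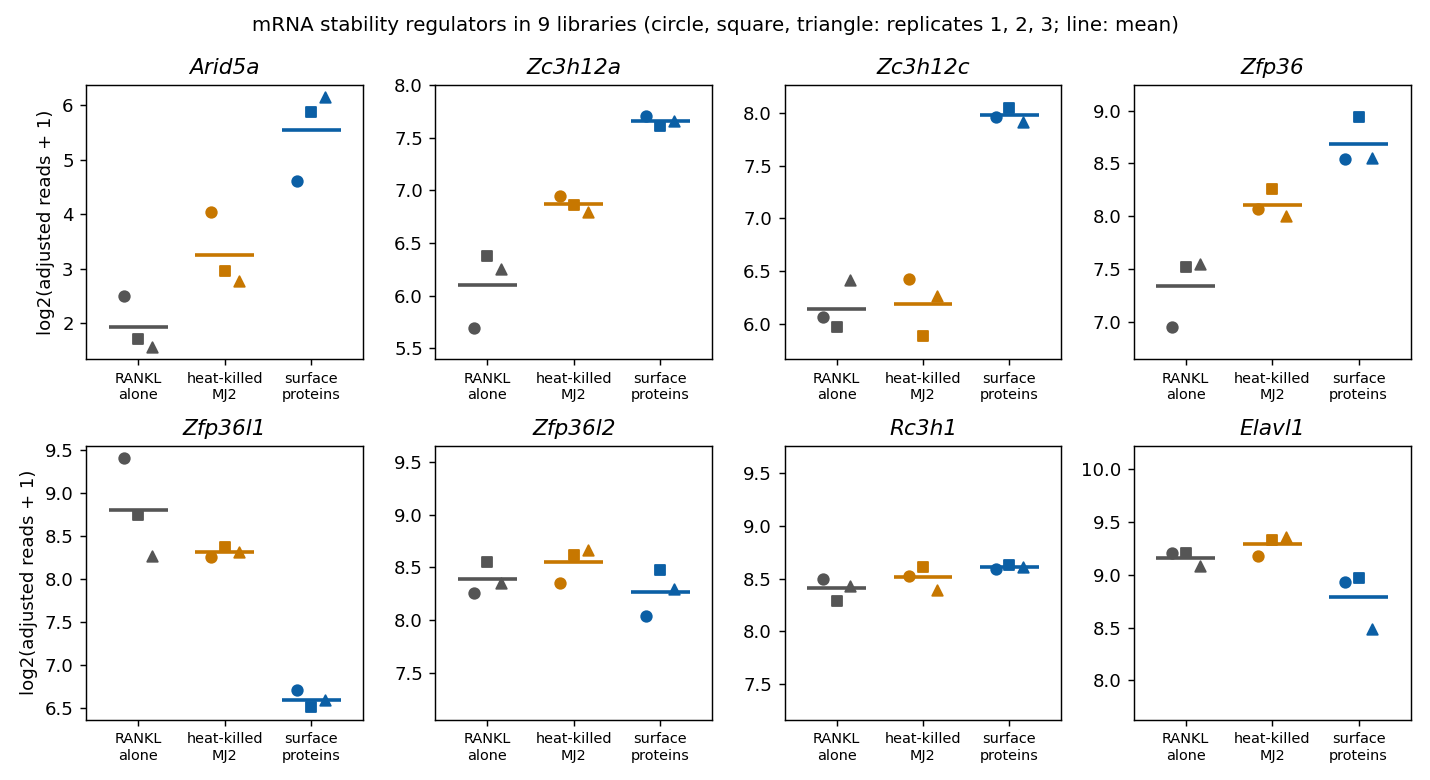
The 8 regulators in the 9 libraries. The y axis is log2(adjusted reads + 1), scaled separately for each gene, symbols are replicates and lines are group means. For Arid5a, Zc3h12a, Zc3h12c and Zfp36 the 3 surface protein libraries lie above the other 6. For Zfp36l1, and for Elavl1, which was not called, they lie below them. Over all genes tested, the surface protein libraries did not overlap those of RANKL alone in 48.4% and those of heat-killed MJ2 in 42.3%.

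Zc3h12a (chromosome 4, 125118423 to 125127840, GRCm38) encodes Regnase-1, the endoribonuclease that cuts Il6 and other inflammatory transcripts. Its adjusted reads were 50.5, 82.0 and 75.1 in the negative control, 123, 115 and 110 with heat-killed MJ2 and 209, 195 and 201 with surface proteins. The 3 groups did not overlap, with RANKL alone lowest and surface proteins highest. Such separation from RANKL alone occurred in 48.4% of all genes tested with surface proteins and in 30.2% with heat-killed MJ2, and separation of the treatments from each other in 42.3%. Zc3h12a rose with surface proteins by a log2 fold change of 1.56 (SE 0.21, 2.94-fold, limma adjusted p = 0.004). With heat-killed MJ2 the log2 fold change was 0.76 (SE 0.21, limma adjusted p = 0.092), which passed only when all 9 libraries shared 1 estimate of the spread (adjusted p = 0.041). It was higher with surface proteins than with heat-killed MJ2 by 0.79 (SE 0.13, 1.73-fold, limma adjusted p = 0.014), a call lost without heat-killed MJ2 replicate 1 or replicate 3 (adjusted p = 0.058 each).

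Zc3h12c (chromosome 9, 52111344 to 52168572) encodes Regnase-3, a relative with the same nuclease domain. Its level was 65.5, 61.6 and 84.0 adjusted reads with RANKL alone and 84.9, 58.0 and 75.5 with heat-killed MJ2. With surface proteins it reached 249, 265 and 239. The first 2 groups overlapped and the surface protein libraries lay well above both. The rise was 1.83 in log2 fold change over RANKL alone (SE 0.17, 3.56-fold, limma adjusted p = 0.0012) and 1.79 over heat-killed MJ2 (SE 0.18, 3.45-fold, limma adjusted p = 0.0063). Heat-killed MJ2 differed from RANKL alone by 0.04 (SE 0.20, limma adjusted p = 0.92). The summed reads of the Regnase genes Zc3h12a and Zc3h12c were 116 to 159 with RANKL alone, 173 to 208 with heat-killed MJ2 and 440 to 460 with surface proteins.

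Arid5a (chromosome 1, 36307754 to 36324029) encodes the protein that protects Il6 mRNA from Regnase-1. It was the regulator with the fewest reads in the negative control, at 4.60, 2.26 and 1.96 adjusted reads. It was at 15.4, 6.73 and 5.86 with heat-killed MJ2 and at 23.5, 57.8 and 69.7 with surface proteins. The groups did not overlap, but the spread within each was wide and the control sat at a few reads. Arid5a rose with surface proteins by 3.63 in log2 fold change (2.70 to 4.09 over 16 alternatives, SE 0.46, 12.3-fold on the log2(adjusted reads + 1) scale, limma adjusted p = 0.0033). It reached the filter of 10 adjusted reads in 3 of the 6 libraries only through the surface protein libraries, so a difference in that direction was favoured by the filter. It did not reach the filter in the comparison of heat-killed MJ2 with RANKL alone, where the log2 fold change without a filter was 1.33 (SE 0.44, limma adjusted p = 0.21). Surface proteins exceeded heat-killed MJ2 by 2.29 (SE 0.50, limma adjusted p = 0.03), and that call was lost in 7 of 16 alternatives, among them leaving out heat-killed MJ2 replicate 1, 2 or 3 (limma adjusted p = 0.056, 0.069 and 0.097) or surface protein replicate 2 or 3 (0.093 and 0.081).

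Zfp36 (chromosome 7, 28376784 to 28380253) encodes tristetraprolin, which speeds the decay of Tnf mRNA. Its adjusted reads were 123, 182 and 186 with RANKL alone, 267, 305 and 255 with heat-killed MJ2 and 371, 490 and 374 with surface proteins. The 3 groups did not overlap. Zfp36 rose with surface proteins by 1.34 in log2 fold change (SE 0.22, 2.53-fold, limma adjusted p = 0.008). The log2 fold change with heat-killed MJ2 was 0.77 (SE 0.20, limma adjusted p = 0.086), and it passed with a variance trend and robust moderation (adjusted p = 0.015). The difference between surface proteins and heat-killed MJ2 was 0.57 (SE 0.17, limma adjusted p = 0.064, and 0.017 with the variance trend).

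Zfp36l1 (chromosome 12, 80107754 to 80113013), a relative that also binds AU-rich elements, went the other way. It had 673, 428 and 306 adjusted reads with RANKL alone and 303, 330 and 317 with heat-killed MJ2. With surface proteins it had 104, 90.1 and 95.7. The control libraries were the most scattered and overlapped those of heat-killed MJ2, while the surface protein libraries lay far below both. Zfp36l1 fell with surface proteins by 2.20 on the log2 scale relative to RANKL alone (SE 0.29, 4.58-fold lower, limma adjusted p = 0.0039) and by 1.70 relative to heat-killed MJ2 (SE 0.13, 3.26-fold lower, limma adjusted p = 0.0036). With heat-killed MJ2 against RANKL alone the log2 fold change was −0.49 (SE 0.29, limma adjusted p = 0.37).

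Zfp36l2 (chromosome 17, 84183931 to 84187947), the remaining AU-rich element binder of this family, stayed within a narrow range. It had 306, 374 and 326 adjusted reads with RANKL alone, 324, 393 and 406 with heat-killed MJ2 and 261, 356 and 315 with surface proteins. All 3 groups overlapped, and the log2 fold changes were −0.12 (SE 0.17, limma adjusted p = 0.65) for surface proteins and 0.16 (SE 0.16, limma adjusted p = 0.61) for heat-killed MJ2.

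The make-up of the Zfp36 family is given as values, since the ratio of Zfp36 to Zfp36l1 restates the changes of these genes. The log2 ratio of Zfp36 to Zfp36l1 within a library was −1.46 ± 0.89 (SD, n = 3) with RANKL alone, −0.20 ± 0.10 with heat-killed MJ2 and 2.07 ± 0.32 with surface proteins. The groups did not overlap in this ratio. For each pair of groups p was 0.1 in a two-sided exact permutation test. That is the smallest p that 3 libraries against 3 can give, so this test could not decide whether the ratio differed. Zfp36 made up 11.1 to 22.7% of the reads of the 3 genes with RANKL alone, 26.1 to 29.9% with heat-killed MJ2 and 47.7 to 52.4% with surface proteins. The sum of the 3 genes was 818 to 1101, 894 to 1027 and 736 to 937 adjusted reads in the same order, with exact permutation p = 0.2 for surface proteins against RANKL alone.

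**Figure D2:**
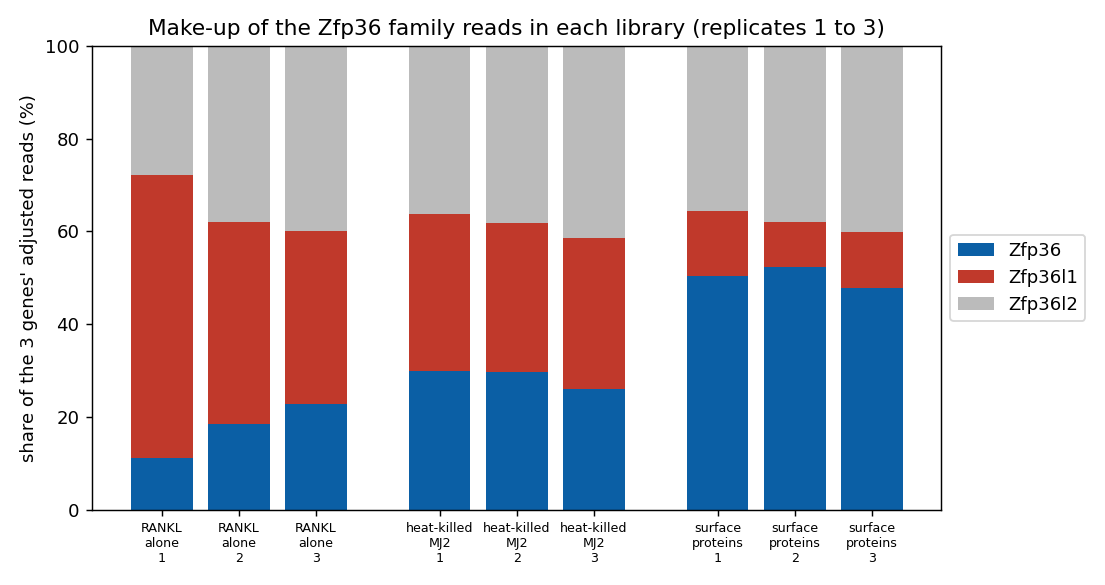
Share of Zfp36, Zfp36l1 and Zfp36l2 in the summed adjusted reads of the 3 genes, in percent, in each of the 9 libraries. Zfp36 takes 47.7 to 52.4% in the surface protein libraries and at most 29.9% in the others, while Zfp36l2 keeps a share of 27.7 to 41.5% in all.

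Rc3h1 (chromosome 1, 160906418 to 160974978) encodes Roquin-1, which works with Regnase-1 on stem-loops. It had 362, 313 and 344 adjusted reads with RANKL alone, 365, 391 and 334 with heat-killed MJ2 and 385, 395 and 391 with surface proteins. The surface protein libraries lay just above the controls without overlap, but the log2 fold change was 0.20 (SE 0.13, limma adjusted p = 0.29). That separation was shared by 48.4% of all genes tested, as given for Zc3h12a.

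Elavl1 (chromosome 8, 4285382 to 4325413), the stabilising HuR protein, had the highest level of the 8 genes in the negative control on average. It had 591, 591 and 539 adjusted reads with RANKL alone, 578, 643 and 655 with heat-killed MJ2 and 485, 499 and 358 with surface proteins. The surface protein libraries lay below the other 6, with log2 fold changes of −0.37 against RANKL alone (SE 0.18, limma adjusted p = 0.16) and −0.50 against heat-killed MJ2 (SE 0.18, limma adjusted p = 0.10). The comparison with heat-killed MJ2 passed with the variance trend alone (adjusted p = 0.022).

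The start of Zfp36 is shown here. This gene rose with surface proteins, as Arid5a, Zc3h12a and Zc3h12c did, and its window held the most motif matches of those searched. Whether the motifs had a part in the rise was not tested. The 250 bases before the RefSeq start (GRCm38.p6, chr7:28379229-28379478, minus strand) are printed 5′ to 3′ with 2 motif matches in capitals, and positions count back from that start. They are a CArG box, the letters of serum response factor sites, at −58 to −49, and a STAT motif (TTCNNNGAA) at −17 to −9.
Zfp36 promoter: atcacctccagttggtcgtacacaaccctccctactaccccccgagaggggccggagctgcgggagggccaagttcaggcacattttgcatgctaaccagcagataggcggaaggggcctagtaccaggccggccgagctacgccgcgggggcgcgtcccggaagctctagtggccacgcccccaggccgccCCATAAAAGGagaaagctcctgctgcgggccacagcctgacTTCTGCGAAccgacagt
Both strands were searched, and 1.47% of 32851 promoters of this length held a CArG box and 7.02% held the STAT motif. The NF-κB consensus was found in 7.25% of promoters, the AP-1 motif TGANTCA in 6.75% and the CRE TGACGTCA in 1.55%. Promoters of 7 of the 8 regulators were in the RefSeq table, with 2 for Zc3h12c, and Zfp36l2 was not matched. The windows of Zfp36 and Elavl1 lie inside the gene intervals given above, which follow GENCODE transcripts with other starts. Those of Zc3h12c overlap its interval in part or in full. The NF-κB consensus matched in 1 Zc3h12c promoter at −236 to −227, and AP-1 matched in the Zfp36l1 promoter at −129 to −123 and in the Rc3h1 promoter at −133 to −127. The windows of Arid5a, Zc3h12a and Elavl1 held none of the 5 motifs.

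More of the transcripts known as targets of these proteins rose than fell in both treatments. Of 26 such transcripts, 17 reached the filter with surface proteins, where 11 rose and 2 fell. These were 76.5% called, against 29.1% of all genes (15.9% upward and 13.2% downward). The median log2 fold change was 2.41 against −0.01 over all genes. With heat-killed MJ2, 18 reached it, 10 rose and none fell. These were 55.6% called, against 5.88% of all genes (4.04% upward and 1.84% downward). The median was the same, 2.41 against −0.00 over all genes. The calls of Ier3, Cxcl3, Il1b and Plaur with heat-killed MJ2 held in 7, 9, 11 and 15 of 16 alternatives, and the other calls in all 16. Il23a, Ptgs2 and Csf1, all counted as risen, reached the filter only through the surface protein libraries. Il1b, Cxcl3, Ptgs2 and Csf1 reached it only through those of heat-killed MJ2, and all but Csf1 were counted as risen there. The filter favoured a rise of these genes, so the counts that hold them are not a test. The medians of the remaining 14 targets in each comparison were 1.83 and 1.78.

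Tnf, the inflammatory cytokine with a stretch of its 3′ UTR printed above, had 230, 209 and 171 adjusted reads with RANKL alone, 1235, 1322 and 1202 with heat-killed MJ2 and 1018, 1260 and 1053 with surface proteins. Both treatments lay well above the control and overlapped each other. The log2 fold changes were 2.45 with surface proteins (SE 0.17, limma adjusted p = 0.00059) and 2.63 with heat-killed MJ2 (SE 0.16, limma adjusted p = 0.00067). Cxcl2, a neutrophil chemokine, rose from 24.3, 146 and 18.8 adjusted reads to 6769, 11926 and 7896 with heat-killed MJ2 and to 9299, 15456 and 10630 with surface proteins. Ptgs2, the inducible cyclooxygenase, was at or under 1.19 adjusted reads in every control and exceeded them at least 62.6-fold with surface proteins and at least 101-fold with heat-killed MJ2, against a floor of 3 reads per library. Il6, the main target of Regnase-1 and Arid5a, did not reach the filter with either treatment, at 0, 0.0592 and 0 adjusted reads with RANKL alone, 1.04, 2.87 and 6.87 with heat-killed MJ2 and 4.88, 39.7 and 6.60 with surface proteins. Il6 was above 3 reads in all 3 surface protein libraries and in 1 of the 3 with heat-killed MJ2, and those groups overlapped. Without the filter it passed with surface proteins (limma adjusted p = 0.039), with a mean at least 5.69-fold above the same floor, and at least 1.91-fold without surface protein replicate 2.

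Of 20 targets tested between the treatments, 3 were higher and 2 lower with surface proteins, or 25% against 17.9% of all genes (9.21% higher and 8.65% lower), with a median of −0.14 against 0.03 over all genes. Nfkbiz, a regulator of NF-κB target genes and a Regnase-1 target, had 86.1, 148 and 61.2 adjusted reads with RANKL alone, 188, 288 and 214 with heat-killed MJ2 and 801, 1170 and 984 with surface proteins. It was higher with surface proteins than with heat-killed MJ2 by 2.10 in log2 fold change (SE 0.22, limma adjusted p = 0.0067). Ccl2, a monocyte chemokine, had 135, 290 and 278 adjusted reads with RANKL alone, 1916, 1501 and 1801 with heat-killed MJ2 and 284, 388 and 227 with surface proteins, and was lower with surface proteins than with heat-killed MJ2 by a log2 fold change of −2.56 (SE 0.23, limma adjusted p = 0.0052). Il23a and Bcl3 were also higher with surface proteins than with heat-killed MJ2 (3.57, SE 0.88, limma adjusted p = 0.04, lost in 6 of 16 alternatives, and 1.05, SE 0.17, limma adjusted p = 0.015), and Tfrc, the transferrin receptor, was lower (−1.04, SE 0.14, limma adjusted p = 0.01).

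**Figure D3:**
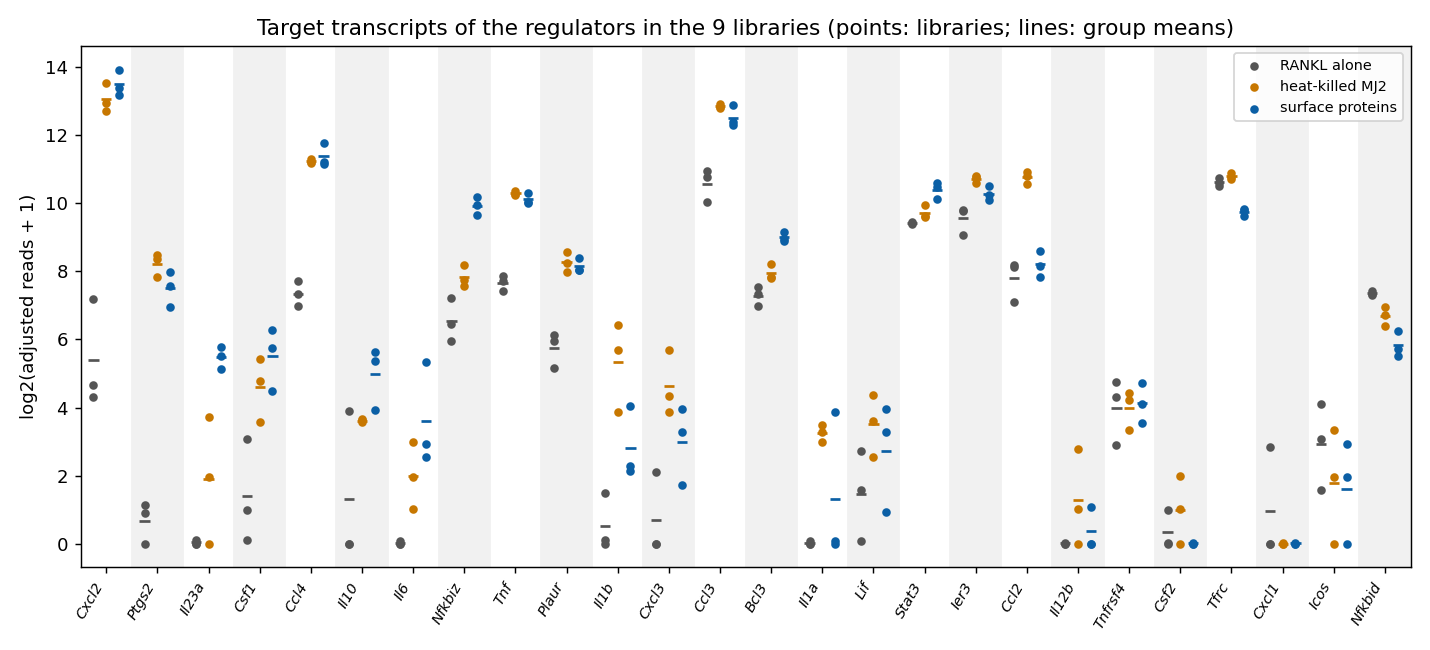
The 26 target transcripts in the 9 libraries, as log2(adjusted reads + 1), ordered by the difference of surface proteins minus RANKL alone. Points are libraries and short lines are group means. Cxcl2 and Ptgs2 stand highest over the control with both treatments, Ccl2 is high only in the heat-killed MJ2 libraries and Nfkbiz is highest in the surface protein libraries.

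Genes of the machinery that the regulators recruit were read against the 15.9% of all genes that rose and the 13.2% that fell with surface proteins, 29.1% together. Of 19 deadenylation genes tested, 10.5% passed. Btg2 rose (log2 fold change 1.03, SE 0.18, limma adjusted p = 0.0089) and Ccrn4l, the deadenylase known as nocturnin, fell (−1.76, SE 0.47, limma adjusted p = 0.036), while the other 17, the CCR4-NOT subunits among them, did not pass. Of 17 decapping genes none rose and 5 fell, or 29.4% called, 4 of them Lsm genes, such as Lsm6 (−1.39, SE 0.17, limma adjusted p = 0.0032) and Lsm3 (−1.09, SE 0.16, limma adjusted p = 0.0057). Some Lsm proteins also serve in the spliceosome. Lsm1 (0.17, SE 0.20, limma adjusted p = 0.57), Dcp1a, Dcp2 and Xrn1 did not pass. Of 16 exosome genes none rose and 3 fell, or 18.8%, with Exosc6 at −1.28 (SE 0.23, limma adjusted p = 0.01). Of 8 genes of the Upf1 pathway, which Regnase-1 uses, only Upf3b passed (−0.59, SE 0.15, limma adjusted p = 0.031), or 12.5%. With heat-killed MJ2, none of the genes of these 4 lists passed in limma, where 5.88% of all genes did, and 0 deadenylation, 3 decapping, 3 exosome and 0 Upf1 pathway genes had an unadjusted p under 0.05, next to 22.6% of all genes.

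Among other binders of AU-rich elements and 3′ UTRs, 3 of 18 rose with surface proteins and 2 fell, and these 27.8% were near the 29.1% of all genes. Igf2bp2, which protects bound transcripts, had 117, 305 and 325 adjusted reads with RANKL alone, 700, 893 and 654 with heat-killed MJ2 and 1653, 1770 and 1485 with surface proteins. It rose with surface proteins by 2.84 (SE 0.40, 7.17-fold, limma adjusted p = 0.0047). Its relative Igf2bp3 had 13.0, 25.9 and 18.8 adjusted reads with RANKL alone, 4.13, 7.69 and 3.90 with heat-killed MJ2 and 63.7, 111 and 55.8 with surface proteins. Igf2bp3 fell with heat-killed MJ2 (−1.70, SE 0.32, limma adjusted p = 0.038, a call lost in 6 of 16 alternatives) after reaching the filter only through the control libraries, so that the filter favoured this direction, and it rose with surface proteins (1.93, SE 0.34, limma adjusted p = 0.0099). Cpeb4 rose with surface proteins (0.80, SE 0.19, limma adjusted p = 0.025), and Hnrnpd, the AU-rich element binder AUF1, fell (−0.73, SE 0.17, limma adjusted p = 0.024). The calls of Cpeb4 and Hnrnpd were each lost in 4 of 16 alternatives, and those of Ccrn4l and Upf3b in 6 of 16.

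Of 9 further relatives and partners of the 8 genes, 4 reached the filter and 1, Rc3h2, rose with surface proteins, or 25% against 29.1% of all genes called. Zc3h12b never exceeded 1.01 adjusted reads, and Zfp36l3 ranged from 0 to 12.6. Rc3h2 (Roquin-2) had 231, 257 and 206 adjusted reads with RANKL alone and 337, 371 and 347 with surface proteins, a rise of 0.61 (SE 0.15, limma adjusted p = 0.026) that was lost in 7 of 16 alternatives. Of 13 upstream kinase and protease genes tested with surface proteins, 1 rose and 2 fell, or 23.1% against 29.1% of all genes. Ikbke, a kinase related to the IκB kinases, rose with both treatments, by 3.34 with surface proteins (SE 0.38, limma adjusted p = 0.0023) and by 3.10 with heat-killed MJ2 (SE 0.39, limma adjusted p = 0.012). Its call with heat-killed MJ2 held in 15 of 16 alternatives. Map2k3, a kinase of the p38 pathway that controls tristetraprolin activity, had 1871, 1732 and 2197 adjusted reads with RANKL alone and 870, 591 and 685 with surface proteins, a fall (−1.44, SE 0.19, limma adjusted p = 0.004). Irak1, a kinase of Toll-like receptor signalling, also fell with surface proteins (−0.45, SE 0.13, limma adjusted p = 0.039), a call lost in 8 of 16 alternatives. With heat-killed MJ2, Ikbke alone of the 13 passed, or 7.69% against 5.88% of all genes. The p38-activated kinase gene Mapkapk2 and the protease gene Malt1, whose product cleaves Regnase-1, did not pass in any of the 3 comparisons.

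Over the 9 libraries, which include the differences between groups, Zc3h12a and Zfp36 had a Pearson's r of 0.96 and each ran against Zfp36l1 (−0.94 and −0.91). The corresponding value was −0.95 for Zc3h12c with Zfp36l1. Among 11193 gene rows, the profile most like that of Zc3h12a belonged to Def6 (r = 0.990), followed by Nfil3 (0.989) and Ankfy1 (0.983). Zfp36 was closest to Otub2 (0.990), Ctsb (0.987) and Igf2bp2 (0.987), and Zc3h12c to Ccar1 (0.983), Rragd (0.979) and Col4a1 (0.978). Arid5a was closest to Maf (0.975), Ctse (0.974) and Rassf4 (0.970), and Zfp36l1 to Hist1h2ai (0.983), Srsf10 (0.981) and Scel (0.980). With 9 points in 3 groups, these values describe the group pattern and share the depth and scaling of each library.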

How the data were processed

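RNA of RAW 264.7 cells was made into 3′ end libraries (QuantSeq) and read as 75-base single reads by the authors. Per the labels, reads were handled with Bowtie2 and bedtools on mm10. Versions, annotation and the treatment of multi-mapped reads are not given in the sources used here. The deposited values were log2 values, normalised between samples by the authors with a quantile method, although the sorted values of the libraries were not identical, with 3 decimals and 1 column per library. The constant of 1 was read from the values: 2 to the power of the value, minus 1, gave near whole reads at low levels (within 0.25 for 73.1% of low values in the lowest library and for 100% in the median library). An adjusted read is that quantity, and the depth before scaling is unknown.

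The 3 groups were those of the labels. Each comparison used its 6 libraries in limma 3.58.1 (R 4.3.3) on the log2 values, keeping genes that reached 10 adjusted reads in 3 or more libraries. Adjusted p-values follow Benjamini and Hochberg over all genes tested, and "rose" and "fell" mean an adjusted p under 0.05. Fold changes are on the log2(adjusted reads + 1) scale, which understates the change of low genes. Ratios within a library were compared with an exact permutation test over libraries (scipy 1.17.1). The procedure was tested on simulated data. For each comparison 16 alternative settings were tried (scaling, constant, filter, samples in the fit, replicate block, variance moderation and leaving out each library). Named genes were the 8 regulators, tested relatives and targets, up to 4 called genes of each other pathway list and the 3 genes with the most similar profile. Igf2bp2 and Igf2bp3 in all groups, the macrophage markers Csf1r, Adgre1, Itgam, Lyz2 and Cd14, Mapkapk2, Malt1 and the untested Il6, Zc3h12b and Zfp36l3 were named after their values were seen. So were the osteoclast markers Acp5 and Mmp9 and the decapping genes Lsm1, Dcp1a, Dcp2 and Xrn1. The members and lists were chosen with earlier results of these data known. Promoter sequences came from RefSeq (GRCm38.p6) and 3′ UTRs from GENCODE M21 (GRCm38), which shares its coordinates with mm10.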

Additional observations from a re-analysis of the deposited data

How the results depend on the processing

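No called value changed direction under the 16 alternatives of each comparison. The 5 regulators called for surface proteins against RANKL alone passed in all 16 of them. Counts of called genes moved more. For surface proteins against RANKL alone, 3163 genes passed, 1902 with a fold of at least 2 as well, and 1934 to 2633 when 1 library was left out, with 2072 without negative control replicate 1 and 1934 without surface protein replicate 2. For heat-killed MJ2 against RANKL alone, 636 passed, 391 without a filter, 1423 with the variance trend and robust moderation, and 189 to 339 when 1 library was left out. For surface proteins against heat-killed MJ2, 1949 passed, 1180 without a filter, 3109 with the variance trend, 1098 with the fold of at least 2, and 352 to 1699 when 1 library was left out, with 352 and 440 without heat-killed MJ2 replicates 1 and 3 and 730 and 749 without surface protein replicates 2 and 3. The larger direction over all genes turned with the scaling: 1727 higher and 1436 lower for surface proteins against RANKL alone became 1586 and 1646 with quantile normalisation and 1595 and 1606 with equal totals, and 1005 and 944 for surface proteins against heat-killed MJ2 became 841 and 1140 with equal totals, 972 and 1006 with quantile normalisation and 929 and 996 with median-ratio scaling. The cause was not tested, apart from the fewer libraries or added criterion that a setting itself brings. The replicate block gave 2531, 289 and 1356 calls in the same order, and 86.9% of the calls for heat-killed MJ2 against RANKL alone were then higher, against 68.7% without the block. Deviations of same-numbered libraries correlated at 0.0179 to 0.106, so the numbers were not taken to pair the samples, although each library correlated best with its own number, a hint from the data only. Of the regulators' values under the alternatives, 355 stayed on their side of the threshold, 9 lost the call and 4 gained it. For the other named genes the counts were 1433, 137 and 29. Under the block, Arid5a lost its call between surface proteins and heat-killed MJ2 (limma adjusted p = 0.083). Arid5a, Il6 and other transcripts of a few reads are limited by depth.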

Other observations

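Genes with the nonamer TTATTTATT in the 3′ UTR were described over the whole table. Of 812 such genes tested with surface proteins, 18.2% rose and 10.6% fell, next to 16.1% and 13.3% of all 10015 tested genes with a 3′ UTR. With heat-killed MJ2, 4.44% of 810 rose and 1.85% fell, next to 4.18% and 1.83% of 9971. Between surface proteins and heat-killed MJ2, 10.6% of 821 were higher and 6.58% lower, next to 9.37% and 8.81% of 10061. The genes with the nonamer had longer 3′ UTRs, at a median of 2356 against 1147 bases in the surface protein comparison, and the part of that length in these shares was not tested. The 72 genes with 3 or more nonamers were near the others with surface proteins, where 16.7% rose and 9.72% fell.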
